A study of Homo sapiens with 4 samples.

Results

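A set of 10 genes that make, desaturate or elongate fatty acids was compared between U937 cells depleted of pirin and control U937 cells. The genes were SREBF1, ACLY, ACACA, FASN, SCD, FADS1, FADS2, FADS3, ELOVL5 and ELOVL6, and every probe set whose annotation names 1 of them was taken. The 10 genes gave 24 probe sets of their own, for 9 of the genes, out of 41091 probe sets with a single gene symbol. FADS1 had none of its own: its 3 probe sets are annotated to FADS1 and to MIR1908, a microRNA gene inside the FADS1 span, and their signal is described apart and assigned to neither.

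U937 is a human myelomonocytic line from a histiocytic lymphoma. The knock-down cells carried the short hairpin shPIR#7 against PIR in the lentiviral vector pSICO-R, the control cells carried that vector empty, and both lines grew in the same serum-containing RPMI-1640 medium. Each condition was represented by 1 RNA pool of 3 extractions, hybridised to 2 HG-U133 Plus 2.0 arrays, so the 4 arrays hold 2 samples and no p-value can be given for the condition. Errors below are SDs between the 2 arrays of a pool (n = 2 arrays); they measure hybridisation and not culture. The labels name 1 hairpin and do not say whether either line was a clone. In bulk RNA of this kind, a change in the share of cells that express a gene cannot be told apart from a change of its RNA per cell.

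Fatty acids are built from cytosolic citrate. ATP citrate lyase (ACLY) releases acetyl-CoA, acetyl-CoA carboxylase (ACACA) turns it into malonyl-CoA, and fatty acid synthase (FASN) assembles palmitate from these units. ELOVL6 lengthens palmitate to stearate, SCD places a double bond at the delta-9 position to give oleate and palmitoleate, and the front-end desaturases FADS1 (delta-5) and FADS2 (delta-6) with the elongase ELOVL5 turn dietary linoleic and linolenic acid into long polyunsaturated fatty acids. SREBF1 encodes SREBP-1, a membrane-bound transcription factor that is cut free when sterols or unsaturated fatty acids are scarce and that drives most of these genes.

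The 250 bases before the transcription start are printed for SCD and FADS2, because these are the members whose signal differed most between the pools. The letters are from RefSeq (GRCh38.p14), read 5′ to 3′ on the strand of the gene, which is the plus strand for both. Capitals mark the NF-Y box CCAAT and the Sp1 box GGGCGG, or its reverse complement CCGCCC. The SCD window lies at chr10:100346983-100347232 and the FADS2 window at chr11:61815953-61816202, the latter before the first of its RefSeq starts.
SCD: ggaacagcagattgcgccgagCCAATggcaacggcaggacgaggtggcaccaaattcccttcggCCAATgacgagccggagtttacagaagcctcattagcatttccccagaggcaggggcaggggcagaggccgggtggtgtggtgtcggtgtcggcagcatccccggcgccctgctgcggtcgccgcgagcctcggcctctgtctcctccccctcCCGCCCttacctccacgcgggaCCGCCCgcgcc
FADS2: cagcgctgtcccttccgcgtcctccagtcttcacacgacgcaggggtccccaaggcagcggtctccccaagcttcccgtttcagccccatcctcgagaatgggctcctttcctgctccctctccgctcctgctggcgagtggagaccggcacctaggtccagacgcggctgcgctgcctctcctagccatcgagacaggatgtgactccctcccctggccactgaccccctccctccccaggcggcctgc

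The SCD window held 2 CCAAT boxes, at positions -229 to -225 and -186 to -182 from the start, and 2 matches to CCGCCC. The FADS2 window printed held no match to any motif searched, and the window of its second start, which overlaps it, held 1 match to CCGCCC at -154 to -149. Both of these starts lie inside the FADS1 span. Sequence before any other FADS2 start was not searched, so the absence holds for these windows only. The motifs were searched on both strands in 13 windows of 9 members. CCAAT was in 7 of these 13 windows, against 32.0% of all 35116 RefSeq windows, and GGGCGG was in 10, against 42.6%. Windows of 1 gene can overlap and hold the same match, as both ACLY windows do. Counted by member, CCAAT was in 5 of 9 and GGGCGG in 8. The share of all genes with a match was not computed, and a gene with more windows has more chances of a match. ELOVL5 held the only E-box, CACGTG, which is in 6.34% of all windows. The sterol regulatory element letters TCACCCCAC, and the looser TCACNCCAC that contains them, were in none of the 13, and in 0.362% and 0.883% of all windows. ACLY and FADS3, whose signals differed little, also held 2 CCAAT boxes each. These are matches of letters in short windows and say nothing of what is bound there.

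The clearest difference among the members was at SCD, the delta-9 desaturase, and the next at FADS2, the delta-6 desaturase; both were higher in the knock-down pool. Values were compared as log2(signal + 18), which understates the change of dim genes. The brightness limit is the 60th percentile of signal on an array, 116.4 to 125.5 here, and a probe set is called measured if it reached this limit on both arrays of either pool. The size rule asks for a gap of at least 1 between the pool means on the log2 scale (2-fold), for no array pair under 0.5 in the same direction, and for the higher pool to reach the brightness limit on both its arrays. Of the 24 probe sets, 17 were measured. The rule was met as higher by 4 of them, 3 of SCD and 1 of FADS2, and as lower by none. Across all 18999 measured probe sets with 1 symbol, 2.39% met it as higher and 1.42% as lower. With each gene taken by its probe set of highest mean log2 value, 1 of 8 measured members, FADS2, was called higher and none lower, against 2.44% and 1.10% of 10288 measured genes. Since SCD narrowly missed the limit on that probe set, the count by genes leaves out the member with the largest differences.

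**Figure D1:**
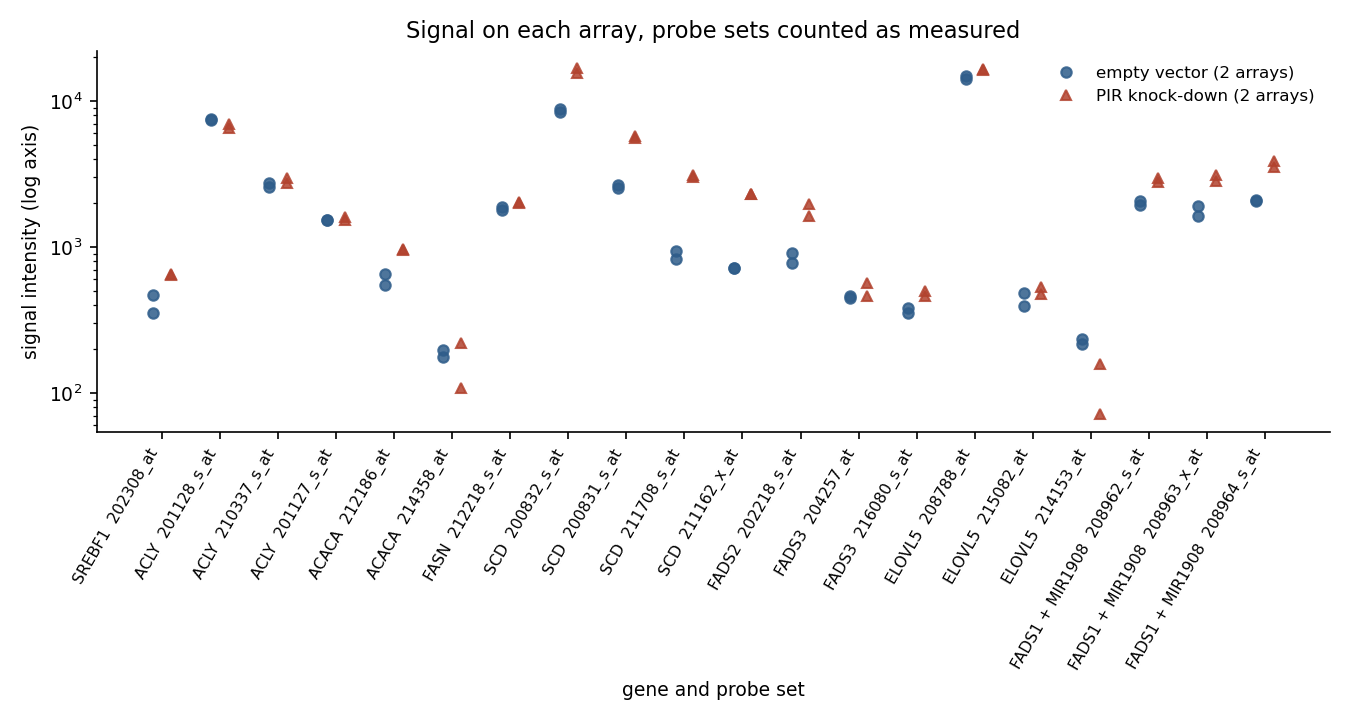
Signal intensity on each array (log axis) for the probe sets counted as measured, 17 with a member as their only gene and 3 annotated to FADS1 and MIR1908; circles are the 2 empty-vector arrays and triangles the 2 knock-down arrays. On all 4 SCD probe sets and on 202218_s_at of FADS2 both triangles lie above both circles, whereas those of 201127_s_at of ACLY overlap.

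SCD had 4 probe sets, all measured. Probe set 211708_s_at read 3123.4 and 2999.8 after knock-down and 935.7 and 834.2 with the empty vector. Probe set 211162_x_at read 2309.4 and 2298.6 against 718.2 and 717.9. On both, every knock-down array was above every empty-vector array by a wide margin. The log2 differences were 1.77, or 3.42-fold, with array-by-array differences from 1.66 to 1.88, and 1.66, or 3.15-fold, with differences from 1.65 to 1.66.

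The other two SCD probe sets gave smaller differences in the same direction. Probe set 200831_s_at read 5716.9 and 5552.8 against 2676.8 and 2530.6, a log2 difference of 1.11 (2.16-fold). Probe set 200832_s_at, which stands for the gene by the rule, read 16818.8 and 15634.1 against 8388.3 and 8782.1, a difference of 0.92 (1.89-fold, array-by-array 0.83 to 1.00). The arrays of the pools did not overlap on any SCD probe set. Over the 17 measured member probe sets, the knock-down arrays lay wholly above in 12, wholly below in 2 and overlapped in 3, beside 38.5% of all measured probe sets wholly above and 32.3% wholly below. The size of the difference was not settled: the lowest and the highest of the 4 estimates lay 0.86 apart on the log2 scale, more than the array-by-array range of any of them. All 4 identifiers end in _s_at or _x_at, which mark probes shared between transcripts, and the reference annotation holds a pseudogene, SCDP1; what either adds to the signal was not tested.

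FADS2, the first and rate-limiting desaturase of the polyunsaturated pathway, was higher on its measured probe set. Probe set 202218_s_at read 1975.4 and 1634.8 after knock-down and 777.7 and 912.9 with the empty vector, 1805.1 ± 241 against 845.3 ± 95.6 (SD, n = 2 arrays). The log2 difference was 1.08 (2.11-fold), with array-by-array differences from 0.83 to 1.32, so the arrays did not overlap but the estimate was less tight than for SCD. The call rested on single arrays: the difference was 0.94 without knock-down replicate 1 and 0.96 without empty-vector replicate 1, both under the 2-fold limit. The other FADS2 probe set, 243953_at, lay below the brightness limit, and its readings of 41.4 and 120.1 against 91.8 and 23.1 overlapped. With both probe sets averaged, FADS2 was at 0.75 and under the 2-fold limit.

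FADS1, the delta-5 desaturase that acts after FADS2, overlaps FADS2 head to head on chromosome 11. The 3 probe sets annotated to FADS1 and MIR1908 all read higher in the knock-down pool without reaching the 2-fold limit. Probe set 208964_s_at read 3548.0 and 3902.9 against 2094.4 and 2070.0, a log2 difference of 0.83 (1.78-fold). The differences were 0.75 on 208963_x_at, with 3101.2 and 2848.4 against 1904.2 and 1632.7, and 0.52 on 208962_s_at, with 2966.3 and 2807.8 against 2061.0 and 1946.0. None of the 3 overlapped between the pools, and single array pairs differed by 0.44 to 0.92. Of all measured probe sets, 38.5% also lay wholly higher and 32.3% wholly lower. The signal cannot be assigned to FADS1 alone.

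FADS3, a delta-13 desaturase with the same gene structure in the same cluster, gave smaller differences. Probe set 204257_at read 461.1 and 566.1 against 459.5 and 450.9, a log2 difference of 0.16, and the lowest knock-down array was only 0.005 above the highest empty-vector array on that scale. Probe set 216080_s_at read 503.4 and 460.0 against 383.0 and 355.8, a difference of 0.37 (1.29-fold). Both pointed up, and neither met the size rule.

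SREBF1, the transcription factor of the pathway, and ACACA, its first committed enzyme, had differences of about the same size, below those of SCD and FADS2 and above that of FASN. SREBF1 probe set 202308_at read 646.7 and 649.4 after knock-down and 467.3 and 351.6 with the empty vector, 648.1 ± 1.91 against 409.5 ± 81.8. Its log2 difference was 0.65 (1.57-fold), with array-by-array differences from 0.45 to 0.85, and the spread came from the empty-vector arrays. The other SREBF1 probe set was below the brightness limit and overlapped.

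ACACA probe set 212186_at read 948.4 and 974.4 against 651.7 and 551.5, a log2 difference of 0.67 (1.59-fold, array-by-array 0.53 to 0.80). The second ACACA probe set, 214358_at, read 109.0 and 220.9 against 176.3 and 196.8; its pools overlapped and its difference was -0.23. The ACACA estimate therefore depends on the probe set, and the mean over both was 0.22. Under a 1.5-fold limit in place of 2-fold, 6 of the 17 measured member probe sets were called higher, namely the 4 of SCD, 1 of FADS2 and 212186_at of ACACA, and none lower, against 6.69% and 4.63% of all measured probe sets. SREBF1 was not among them because not every array pair differed by at least 0.5.

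The enzymes on either side of ACACA differed little. FASN, the synthase itself, read 2027.3 and 1991.9 on probe set 212218_s_at after knock-down and 1867.7 and 1803.5 with the empty vector, a log2 difference of 0.13 (1.09-fold, array-by-array 0.09 to 0.17). That is a small difference, though the arrays did not overlap, which also held for 40.9% of all measured genes as higher. Its other probe set, 217006_x_at, went the other way, with 7.8 and 9.8 against 71.7 and 44.6, all below the brightness limit; its difference of -1.48 (2.80-fold lower) is that of a dim probe set and was not counted.

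ACLY, which supplies acetyl-CoA, had 3 measured probe sets that disagreed in sign. Probe set 201128_s_at read 6568.3 and 7006.5 against 7398.6 and 7519.8, a log2 difference of -0.14. Probe set 210337_s_at gave 0.10, with 2956.0 and 2754.6 against 2747.0 and 2594.5, and 201127_s_at gave 0.03, with 1528.4 and 1612.1 against 1532.0 and 1540.6. No direction can be given for ACLY.

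ELOVL5, the elongase of polyunsaturated chains, read 16302.4 and 16511.3 on probe set 208788_at after knock-down and 14154.5 and 14931.0 with the empty vector, a log2 difference of 0.17 (1.13-fold). Probe set 215082_at gave 0.19 with overlapping arrays, 473.3 and 533.3 against 396.5 and 486.5. Its remaining measured probe set, 214153_at, read 158.4 and 71.4 against 215.3 and 234.9, a difference of -0.95, but single array pairs spanned -1.50 to -0.40 and the rule was not met. Without knock-down replicate 1 that probe set was at -1.44 and was called lower, and without empty-vector replicate 1 it was at -1.01 and was also called lower. ELOVL6, the elongase of palmitate, was not measured: its 3 probe sets read between 2.5 and 36.0 on the 4 arrays, with overlapping pools on each.

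**Figure D2:**
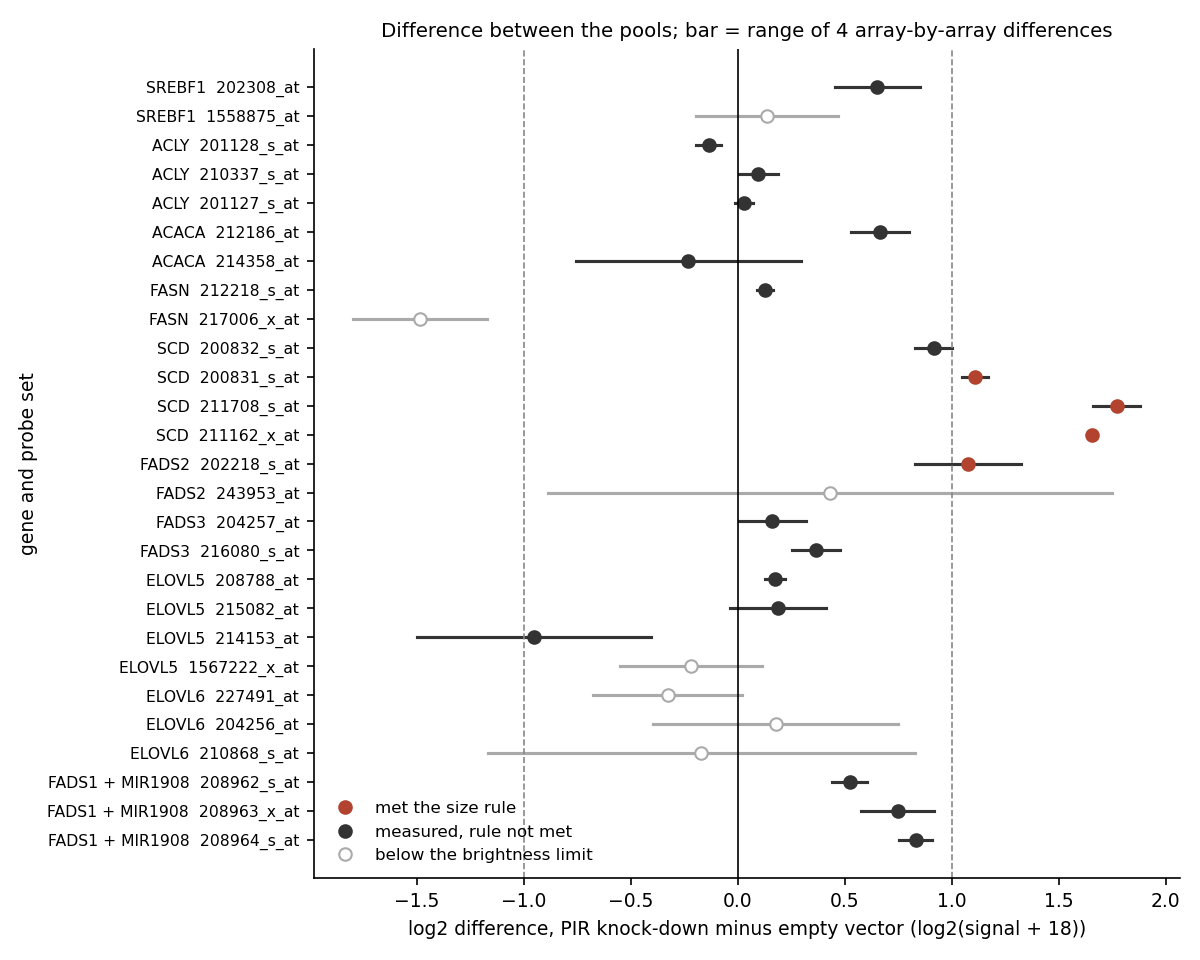
Log2 difference, knock-down minus empty vector on log2(signal + 18), for all 24 member probe sets and the 3 annotated to FADS1 and MIR1908; points are differences of pool means, bars the range of the 4 array-by-array differences, and dashed lines the 2-fold limit. Filled red points met the size rule (3 of SCD at 1.11, 1.66 and 1.77, and 1 of FADS2 at 1.08), and open points lay below the brightness limit.

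Over the 8 measured members the differences ran from -0.14 for ACLY to 1.08 for FADS2, with a median of 0.41 (1.33-fold), beside 0.05 over all 10288 measured genes. Of the 8, 7 had a positive difference, as did 55.2% of all measured genes. The arrays of the pools did not overlap for any of the 8, higher for 7 and lower for ACLY; the same held for 40.9% of all measured genes as higher and 31.2% as lower, so lack of overlap is common here and tells little about the members. The members with the larger differences were the SCD and FADS2 desaturases, then ACACA and SREBF1, whereas FASN, FADS3 and ELOVL5 lay between 0.13 and 0.17. The median depended on how a gene was summarised: it was 0.24 when the probe sets of each gene were averaged, those below the brightness limit included.

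Other genes of the pathway were taken from 5 lists of 60 genes, of which 52 had a probe set of their own and 43 were measured. None of the 43 met the size rule in either direction, beside 2.44% higher and 1.10% lower of all measured genes. Positive differences were found in 31 of the 43, and the median was 0.24. Of all measured genes, 55.2% had a positive difference, and their median was 0.05. The same share stands beside the counts by list that follow. At the 1.5-fold limit, 6 were called higher and 1 lower, against 6.98% and 3.80% of all measured genes, and each is named below.

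The list of SREBP processing genes and lipogenic transcription factors had the highest median of the 5 lists, 0.43, and 7 of its 8 measured genes were positive. INSIG2, which holds the SREBP escort protein in the endoplasmic reticulum, read 1364.3 and 1311.9 against 729.9 and 761.5, a log2 difference of 0.83 (1.78-fold). SCAP, the escort protein itself, read 2368.4 and 2632.8 against 1847.3 and 1738.1, a difference of 0.47. The arrays of INSIG2 and SCAP did not overlap, which also held for 40.9% of all measured genes as higher and 31.2% as lower. The remaining measured genes of the list, given after their values were seen, were INSIG1 and SREBF2 at 0.46 each, MBTPS2 at 0.41, USF2 at 0.17, MBTPS1 at 0.06 and MLX at -0.12. Each of these values is from the brightest probe set alone. INSIG1, SREBF2, MBTPS2 and USF2 have 3 probe sets of their own, MBTPS1 has 2 and MLX has 6. MBTPS1 and MBTPS2 are the proteases that cut SREBP, and the arrays of MBTPS1 and MLX overlapped.

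In the elongation and desaturation list, 8 of 11 measured members were positive, with a median of 0.38, and the list held the 1 gene past the 1.5-fold limit as lower. HACD2, a dehydratase of the elongation cycle, read 1079.4 and 1171.9 against 2148.3 and 1980.3, a difference of -0.86 (1.82-fold lower), and its other probe set gave -0.37. CYB5R3, the reductase that passes electrons through cytochrome b5 to the desaturases, read 4079.4 and 3940.8 against 2429.6 and 2420.1, a difference of 0.72 (1.65-fold), and 0.26 on its other probe set. HACD4, named after its value was seen to complete the count, was at 0.64 on the brighter of its 2 probe sets. CYB5R3 and HACD2, which both serve the members' reactions, thus differed in opposite directions.

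Among 9 measured genes of fatty acid activation and triglyceride synthesis, 6 were positive, beside 55.2% of all measured genes. The list median was 0.11. LPIN1, a phosphatidate phosphatase, read 1259.0 and 1209.3 against 758.8 and 693.3, a difference of 0.75 (1.68-fold), with 0.65 and 0.83 on its other probe sets. DGAT2, which makes triglycerides, read 1060.5 and 1069.2 against 664.6 and 700.1, a difference of 0.63 (1.55-fold), with 0.52 on the other. For both genes all probe sets pointed the same way. In the list of acetyl-CoA and NADPH supply, with a median of 0.21 over 5 measured genes, IDH1, the cytosolic NADP-dependent isocitrate dehydrogenase, was at 0.59 (20147 ± 115 against 13380 ± 489) and ACSS2, which makes acetyl-CoA from acetate, at 0.45. The other two IDH1 probe sets, both measured, gave 0.82 and -0.34. In the list of carboxylase control and malonyl-CoA use, with a median of 0.13 over 10 genes, MID1IP1, which promotes carboxylase polymerisation, was at 0.53 and OXSM, of mitochondrial fatty acid synthesis, at 0.43.

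**Figure D3:**
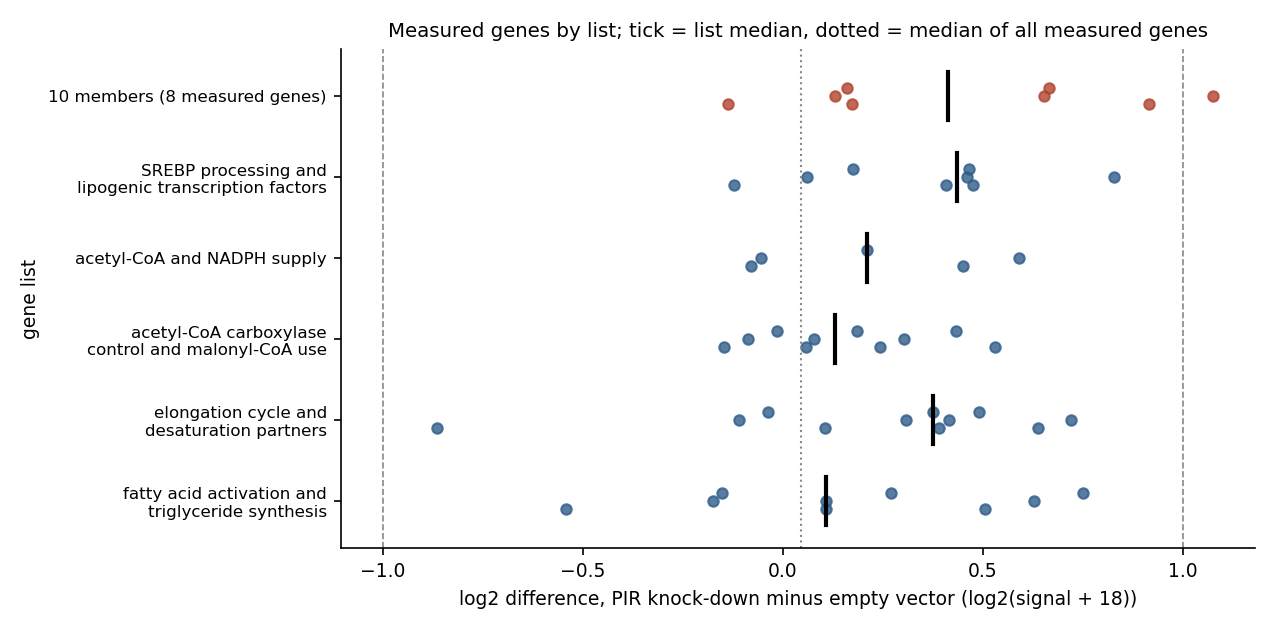
Log2 difference, knock-down minus empty vector on log2(signal + 18), of each measured gene by list, each gene taken by its probe set of highest mean log2 value; ticks are list medians, the dotted line the median of all measured genes (0.05) and dashed lines the 2-fold limit. FADS2 at 1.08 is the only point past the limit; list medians run from 0.11 to 0.43.

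PIR, the target of the hairpin, read 83.4 and 91.5 after knock-down and 1812.9 and 1881.7 with the empty vector. Ratios of 3′ to 5′ control probe sets were 0.96 to 1.02 for GAPDH and 1.17 to 1.18 for ACTB on the 4 arrays. Median SDs between arrays over measured genes were 0.07 for the knock-down and 0.06 for the control. Of 10 monocytic markers, 8 had a probe set of their own and 6 were measured, with LYZ at 0.01 and SPI1 at -0.13; MPO and FCGR1A lay below the brightness limit. ITGAX, CD4 and CSF1R differed by 0.90, 0.84 and 0.69 in the direction of SCD, and CEBPA by 0.26. The summed signal of the 8 was 38569 to 43180 with knock-down and 37520 to 38063 without. Most of that sum was LYZ, at 25099.6 and 30525.0 with knock-down and 27355.8 and 27532.8 without. The part of these markers in the result was not tested. No adipocyte marker of 4 (ADIPOQ, PLIN1, LEP and CIDEC, summed signal 148.5 to 154.4 against 121.2 to 153.5) and no T cell marker of 4 was measured, nor were the hepatocyte markers ALB, APOA1 and TTR, while SERPINA1, also a monocyte product, was at 0.80. The B cell markers CD79A and PAX5 were measured, at -0.11 and -0.30.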

How the data were processed

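The authors deposited linear signal intensities, 1 for each probe set on each array. The submitters' processing notes name GCOS, with its version not given in the sources used here. After trimming 2% at each end, every array had a mean of 500.07, so a common scaling had been applied. Detection calls were not used here. The precision is limited by 1 pool per condition, by 2 arrays per pool and by probe sets of a gene that differ. Of 54613 probe sets that are not AFFX controls, 41091 had 1 gene symbol, 1801 several and 11721 none; 41037 matched the reference gene table by identifier. Probe sets with several symbols were not assigned.

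Arrays of the same RNA pool were averaged as 1 sample. The pseudocount of 18 is the rounded mean over arrays of the 25th percentile. No test was made. All 10 members are described; from each pathway list, the genes that met the size rule were to be named, otherwise the 2 measured genes with the largest differences. The members and lists were chosen with earlier results of these data known. Alternatives changed the pseudocount, brightness limit, normalization, fold limit, margin, probe set summary and arrays used. Promoter letters came from RefSeq windows, of which 9 of 10 members have at least 1 (13 in all). Protein sequences were not used here. Python 3.11.15, pandas 2.3.3 and numpy 2.4.6 were used.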

Additional observations from a re-analysis of the deposited data

How the results depend on the processing

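No paired analysis was possible because both arrays of a pool carry the same RNA and the comparison comes from no test. The 4 member probe sets called higher stayed between 3 and 6 under every alternative. The probe sets called lower numbered 1 with no brightness limit (FASN 217006_x_at), and 0 to 1 with single arrays left out (ELOVL5 214153_at). The count of member genes called higher was 3 at 1.5-fold, 2 with median scaling (SCD joined FADS2), 1 with all probe sets of a gene averaged (SCD at 1.36, with FADS2 at 0.75 no longer past 2-fold), 0 when probe sets without shared probes were preferred, and 0 to 1 with single arrays left out. The median difference of the members, 0.41, was 0.24 with all probe sets of a gene averaged, 0.17 with no brightness limit, 0.17 when probe sets without shared probes were preferred, 0.54 with median scaling and, in an alternative chosen after seeing the data, 0.65 with the FADS1 and MIR1908 probe sets counted; with single arrays left out it ran from 0.33 to 0.48. Median scaling moved the median of all measured genes from 0.05 to 0.17, and so accounts for its own shift. With no brightness limit, the dim gene ELOVL6 came in at -0.33, and the median of 0.17 there covers 9 members. When probe sets without shared probes were preferred, FADS2 stood by 243953_at, below the brightness limit, and dropped out. The count of 0 and the median of 0.17 in that setting cover 7 measured members. They are not free of shared probes. SCD, FASN and ACLY have only probe sets ending in _s_at or _x_at, and kept the same probe set and value. Pathway genes called higher and lower were 6 and 1 at 1.5-fold, and THRSP alone was called lower with no brightness limit (1) and without empty-vector replicate 2 (0 to 1 with single arrays left out). By gene, SREBF1, ACACA, SCD, FADS2 and FADS3 stayed positive in all 12 alternatives that give a difference. Most of these alternatives reuse the same probe set of a gene. The lowest FADS2 value, 0.43, is that of 243953_at, below the brightness limit. The lowest FADS3 value, 0.02, came without knock-down replicate 2 and is close to no difference. ACLY stayed negative in 12, but at -0.003 with its probe sets averaged and -0.01 with median scaling. No direction can be given for it. FASN was -0.68 and ELOVL5 -0.20 when all probe sets were averaged. That average takes in probe sets below the brightness limit, for FASN 217006_x_at at -1.48 beside 212218_s_at at 0.13.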
